A study of Mus musculus with 2 samples.

Results

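The report describes 40 genes of the cell division cycle, 24 of the G2 and M phases (G2/M) and 16 of S phase, in the defect tissue of the mouse skull. They were picked by gene symbol from the 32285 genes of the count matrices, and all 40 were found, each once. Single-cell RNA-seq had been made from calvarial bone around a defect, taken 7 days after injury from male C57BL/6 mice. One library came from mice given gambogic amide (GA), a small molecule that activates the nerve growth factor receptor TrkA, and 1 library from mice given the vehicle, 10% DMSO, which is the control. By the sample labels, injections of 100 µL were intraperitoneal and daily for 1 week from 24 h before injury, and GA was given at 1.2 mg/kg, while the study's methods name another dose and duration. Each library pooled several mice, the bone was digested with collagenase and red blood cells were lysed, so neither group has replicates and no test between the groups was possible. All intervals cover counting error only, at the 95% level, and say nothing of the spread between mice. Those of summed UMIs and their ratios also leave out the spread between cells.

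A dividing cell copies its DNA in S phase and separates the copies in M phase. The S genes encode the helicase that opens DNA at origins (Mcm2 to Mcm7), the sliding clamp Pcna, and the enzymes that supply nucleotides (Tyms, Rrm1, Rrm2). They are switched on by E2F factors near the start of S phase. The G2/M genes encode mitotic cyclins and their kinase (Ccnb1, Ccnb2, Ccna2, Cdk1), the proteins of the spindle, kinetochore and chromosome surface, and those that destroy cyclins at the end of mitosis (Ube2c, Cdc20). They are held down in resting cells and switched on late by the MuvB complex with B-Myb and FoxM1. In bone and marrow, the genes mark the precursors of blood cells and the skeletal cells that expand after injury, while mature neutrophils no longer divide.

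The promoters of both groups carry letters of 3 motifs known from this control. The 2 sets differ most in the CHR and the E2F motif described below, and less in the CCAAT box. RefSeq windows from 250 bases before to 50 after the start (GRCm38.p6) matched 20 of the 24 G2/M genes and 14 of the 16 S genes. The cell cycle homology region (CHR, searched as TTTGAA or TTTAAA on both strands) was in the windows of 18 of the 20 G2/M genes (90%), 4 of the 14 S genes (28.6%) and 30.6% of all 27025 genes. A CCAAT box (CCAAT, both strands) was in 18 of 20 G2/M genes (90%), 10 of 14 S genes (71.4%) and 41.1% of all genes. At least 2 CCAAT boxes, counted without overlap, were in 12 of 20 (60%), 7 of 14 (50%) and 13.1%. An E2F motif (TTTGGCGC, TTTGCCGC, TTTCGCGC or TTTCCCGC, both strands) was in 1 of 20 G2/M genes (5%), 7 of 14 S genes (50%) and 2.60% of all genes. A match is a description of letters and no proof of a bound site.

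The 160 bases before the start of 8 members show this, with matches in capitals. Where matches of a motif overlap, only the first is marked and counted. For the G2/M genes they lie at chr11:99024190-99024349 (minus strand) for Top2a, chr2:164769769-164769928 (plus strand) for Ube2c, chr10:69352913-69353072 (minus strand) for Cdk1, chr13:100786487-100786646 (minus strand) for Ccnb1 and chr4:118437344-118437503 (minus strand) for Cdc20. For the S genes they lie at chr8:75109349-75109508 (plus strand) for Mcm5, chr1:128359706-128359865 (minus strand) for Mcm6 and chr11:98907991-98908150 (plus strand) for Cdc6. Each is written 5′ to 3′ on the gene's strand.
Top2a: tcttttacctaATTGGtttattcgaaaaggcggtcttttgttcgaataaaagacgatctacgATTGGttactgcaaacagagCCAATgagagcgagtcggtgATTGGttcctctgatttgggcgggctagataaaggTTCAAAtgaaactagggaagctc
Ube2c: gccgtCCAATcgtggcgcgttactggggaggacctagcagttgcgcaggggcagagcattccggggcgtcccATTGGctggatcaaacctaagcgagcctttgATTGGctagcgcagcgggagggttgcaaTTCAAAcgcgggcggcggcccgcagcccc
Cdk1: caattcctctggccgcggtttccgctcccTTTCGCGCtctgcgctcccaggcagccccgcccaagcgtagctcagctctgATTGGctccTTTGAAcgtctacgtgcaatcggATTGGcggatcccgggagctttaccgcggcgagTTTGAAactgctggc
Ccnb1: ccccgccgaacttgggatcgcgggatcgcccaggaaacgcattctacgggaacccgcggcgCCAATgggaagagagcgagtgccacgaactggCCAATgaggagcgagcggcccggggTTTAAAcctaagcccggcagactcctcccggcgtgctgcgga
Cdc20: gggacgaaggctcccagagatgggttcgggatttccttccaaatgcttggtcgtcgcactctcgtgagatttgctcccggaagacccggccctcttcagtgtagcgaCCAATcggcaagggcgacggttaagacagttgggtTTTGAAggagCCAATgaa
Mcm5: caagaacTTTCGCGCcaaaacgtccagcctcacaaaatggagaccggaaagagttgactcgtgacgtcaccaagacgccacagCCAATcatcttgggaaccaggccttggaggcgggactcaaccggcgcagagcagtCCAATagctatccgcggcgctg
Mcm6: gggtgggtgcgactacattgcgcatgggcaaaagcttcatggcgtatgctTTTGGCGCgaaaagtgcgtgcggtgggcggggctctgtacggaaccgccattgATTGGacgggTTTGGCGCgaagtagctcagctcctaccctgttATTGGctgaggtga
Cdc6: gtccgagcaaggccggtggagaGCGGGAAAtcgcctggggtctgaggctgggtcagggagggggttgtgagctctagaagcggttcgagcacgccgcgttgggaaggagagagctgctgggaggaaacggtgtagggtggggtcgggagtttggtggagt
Each of the 5 G2/M windows holds at least 2 CCAAT boxes and at least 1 CHR, and only that of Cdk1 among them holds an E2F motif. Of the 3 S windows each holds an E2F motif, and Mcm6 holds 2 that do not overlap. In Mcm5 and Mcm6 a further E2F match on the other strand overlaps the first and is not marked. None holds a CHR within the 160 bases, though Mcm5 has one at -221. The printed genes are chosen examples. The 5 G2/M genes are among the 12 of 20 with at least 2 CCAAT boxes. The 3 S genes are among the 7 of 14 with an E2F motif.

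The matrices held 182949385 unique molecular identifiers (UMIs) in GA and 214993030 in control. After limits on cells and removal of predicted doublets, 8380 GA cells and 7553 control cells were kept, with medians of 10969 and 16299 UMIs. Only 18 barcodes were shared among the kept cells. Cells were named by clusters from marker genes. A list of 387 cell cycle genes, the members among them, was left out of the clustering. Whether other genes that move with the cycle shaped the classes was not tested. Clusters of B lymphoid-like cells still lay far apart in the members, as given below. In the 12 classes with at least 50 cells in each library, 95 of 99 markers were over 2 times higher than in other cells in both libraries. The exceptions were 3 of 7 monocyte markers and 1 of 7 markers of granulocyte-monocyte progenitors. The same marker lists had been used to name the clusters, so this count is no separate check of the names. Neutrophil-like cells were 51.8% of GA cells and 27.2% of control cells, while the mesenchymal lineage, made up of mesenchymal-like and osteoblast-like cells, was 10.4% and 22.9%.

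Across classes the G2/M genes were highest in part of the B lymphoid-like cells and in erythroid-like cells. The level is given as the sum of a set's UMIs per 1000000 UMIs of the class (CPM). The 24 G2/M genes summed to 6234 CPM (6156 to 6313) in GA and 6394 (6317 to 6472) in control in B lymphoid-like cells without a stage (cells of no named B cell stage). That class was mixed, and its clusters ran from 100 to 10706 CPM in GA and from 129 to 10572 CPM in control. Erythroid-like cells followed at 5820 and 5399 CPM. Neutrophil precursor-like cells were at 4547 and 4358 CPM, and pro-B or pre-B-like cells at 3922 and 4704 CPM. Monocyte-like cells stood at 3706 and 2667 CPM, plasmacytoid dendritic-like cells at 3589 and 1027 CPM, and granulocyte-monocyte progenitor-like cells at 2695 and 2692 CPM. Macrophage-like cells (385 and 192 CPM) and mesenchymal-like cells (446 and 583 CPM) were far lower. Mature neutrophil-like cells, at 107 and 124 CPM, and osteoblast-like cells, at 36.9 and 190.3 CPM, were at the low end.

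The S genes had another order. They were highest in erythroid-like cells, at 3511 and 3691 CPM, and among classes of at least 50 cells per library low in neutrophil-like cells without a stage, at 69.6 and 78.1 CPM, in mature neutrophil-like cells, at 81.5 and 112 CPM, and in osteoblast-like cells, at 69.3 and 119 CPM. Neutrophil precursor-like cells, high in G2/M genes, held 943 and 1103 CPM of S genes, an S to G2/M ratio of 0.207 in GA and 0.253 in control. The ratio was 0.674 and 0.62 in granulocyte-monocyte progenitor-like cells and 0.603 and 0.684 in erythroid-like cells. It was above 1 in macrophage-like cells, at 1.16 and 1.72.

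**Figure D1:**
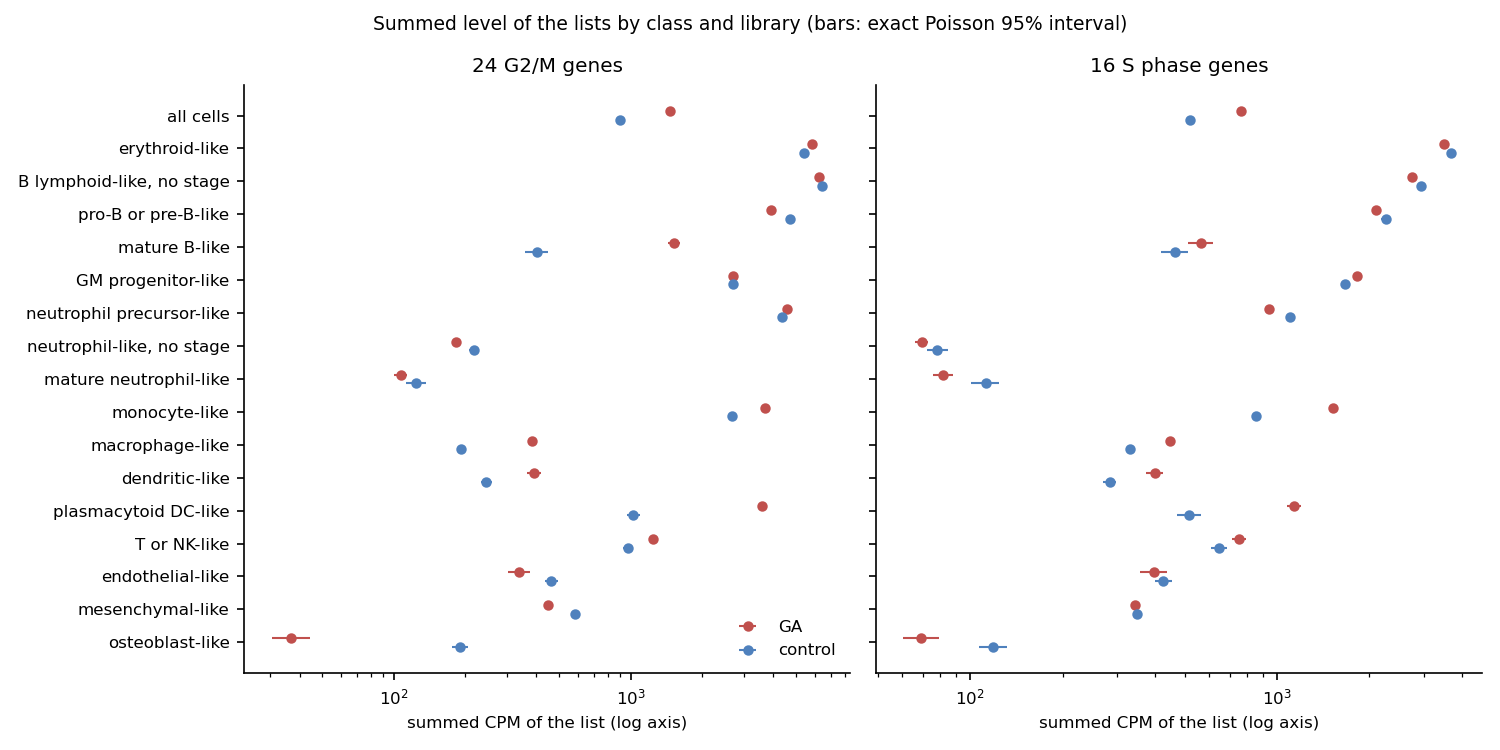
Summed CPM of the 24 G2/M genes (left) and the 16 S phase genes (right) on log axes, for all cells and each class, with GA in red and control in blue and bars for exact Poisson 95% intervals. GM progenitor stands for granulocyte-monocyte progenitor and DC for dendritic cell. B lymphoid-like cells without a stage reach 6234 and 6394 CPM of G2/M genes, and mature neutrophil-like cells 107 and 124 CPM.

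Single members followed these sums with a few exceptions. Of the 24 G2/M genes, 17 were highest in B lymphoid-like cells without a stage in each library, and 6 in GA and 5 in control were highest in erythroid-like cells. Mki67 (ENSMUSG00000031004), which coats mitotic chromosomes, reached 1192 CPM in GA and 993 CPM in control in erythroid-like cells. Top2a (ENSMUSG00000020914), the enzyme that untangles DNA, reached 1092 and 1060 CPM in B lymphoid-like cells without a stage. Ube2c, the ubiquitin-conjugating enzyme that works with the anaphase-promoting complex, was highest in neutrophil precursor-like cells in GA, at 538 CPM. Among S genes, 12 of 16 in GA and 13 of 16 in control were highest in erythroid-like cells. Rrm2, a subunit of ribonucleotide reductase, stood there at 358 and 392 CPM.

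Most members were near 0 in mature neutrophil-like cells, and 4 were not. Top2a was at 626 CPM in neutrophil precursor-like cells and 1.71 CPM in mature ones in GA, and at 590.2 and 1.57 CPM in control. Kif23, a motor of the central spindle, had 50.3 CPM in GA and 55.0 in control, 36.8% and 41.2% of its level in the precursors. Slbp, which binds the stem-loop of histone mRNA, was at 31.4% and 30.6% of its precursor level. Pcna was at 19.7% and 31.1%, and Cenpa, the histone of centromeres, at 12.3% and 17.9%. In the neutrophil-like cells without a stage Kif23 was at 20.2 and 27.9 CPM, below the mature cells in both libraries. Pcna was lower there too, at 12.1 and 14.5 CPM, against 21.6 and 45.9 CPM in the mature cells. These 4 were chosen after their values were seen.

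**Figure D2:**
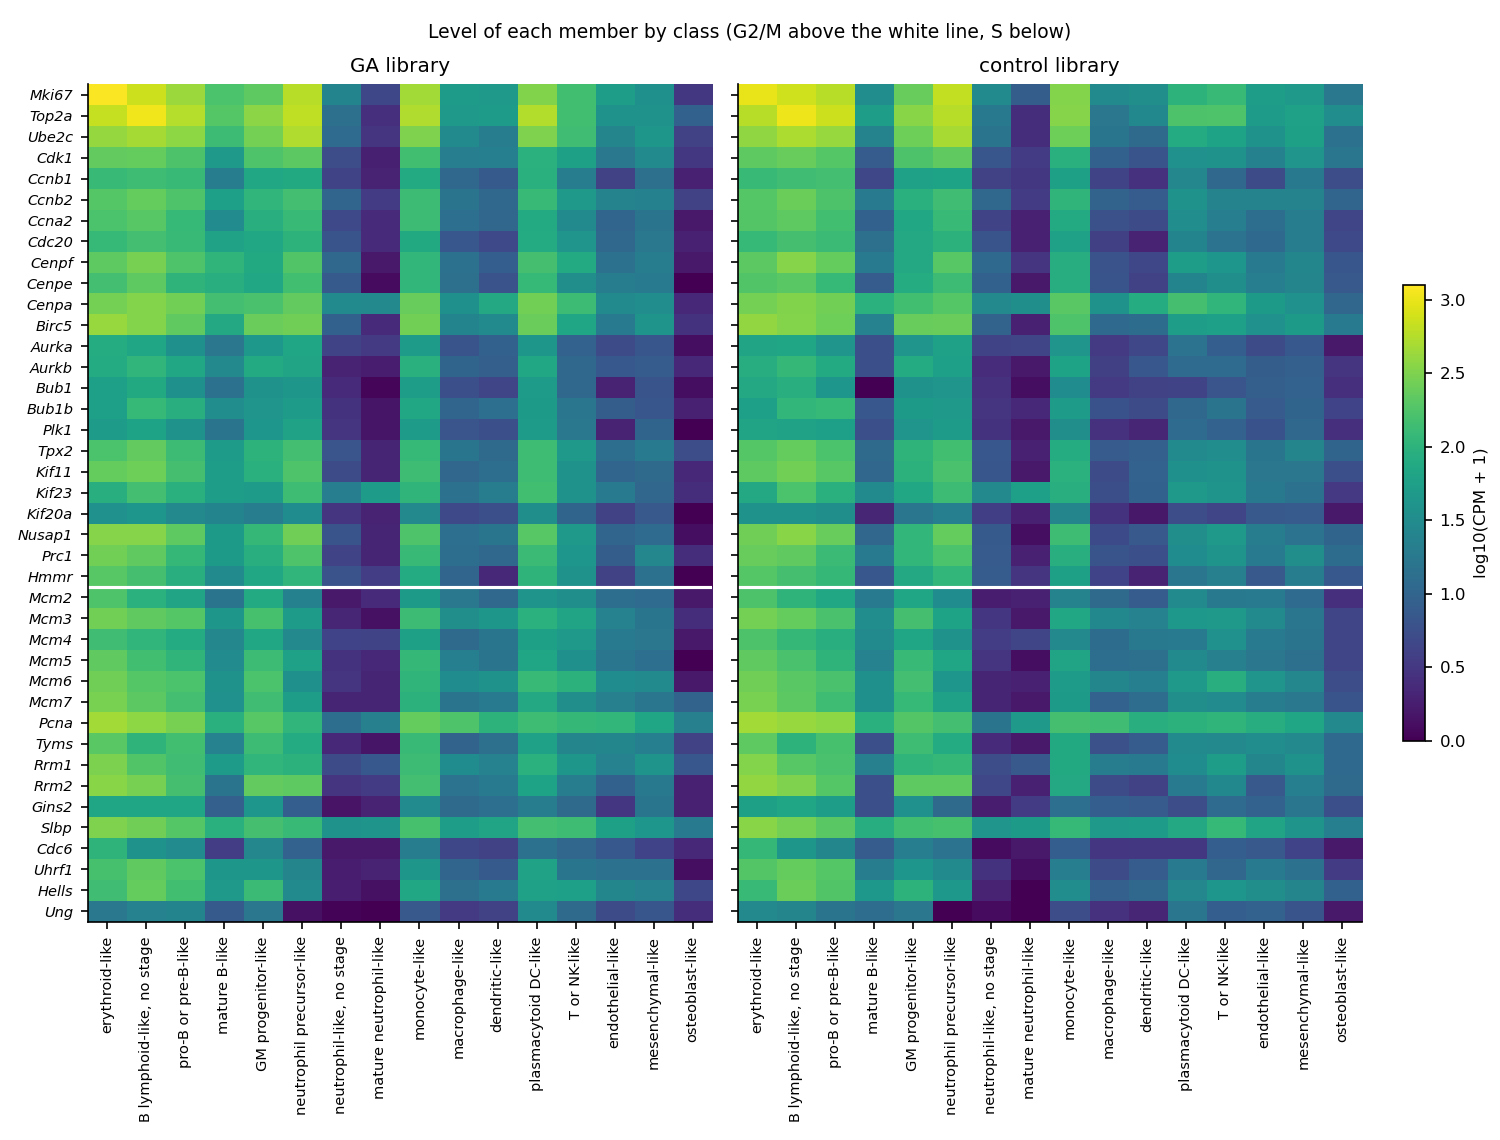
Level of each of the 40 members, as log10(CPM + 1), in 16 classes of the GA library (left) and the control library (right), with G2/M genes above the white line and S genes below. The columns of B lymphoid-like cells without a stage, erythroid-like and neutrophil precursor-like cells are bright, and in mature neutrophil-like cells Kif23, Slbp, Pcna and Cenpa stand out.

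Each member was also compared between cells split by the other set. S genes were compared between cells with at least 3 G2/M UMIs, after each cell was thinned to 2000 UMIs, and cells with none. Rrm2 was 32.1 times higher in the former in GA and 32.0 times in control. Tyms, which makes thymidylate, was 16.8 and 15.03 times higher, and Uhrf1, which reads hemimethylated DNA, 14.1 and 15 times. At the other end were Pcna, at 3.88 and 3.08 times, Slbp, at 3.66 and 3.76 times, and Ung, which removes uracil from DNA, at 2.65 and 2.37 times. Split by S genes, Top2a was 12.2 and 17.6 times higher and the passenger kinase Aurkb 12.2 and 15.2 times, while Cenpa was 3.35 and 3.03 times higher. Such cells also differ in class and depth, and the part of these differences was not tested.

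Over all cells, every member was higher in the GA library, where 41.5% of all genes were higher. The question was whether GA changed the cycling of cells in the defect, which 1 library per group cannot settle. The 24 G2/M genes summed to 1459 CPM (1453 to 1465) in GA and 901 CPM (897 to 906) in control, a log2 ratio of 0.69 (0.69 to 0.70). The 16 S genes summed to 763 and 519 CPM, a log2 ratio of 0.56 (0.54 to 0.57). Log2 ratios ran from 0.44 to 1.02 for G2/M genes, with a median of 0.69, and from 0.24 to 0.92 for S genes, with a median of 0.59. The median of all 18374 genes with at least 50 UMIs was -0.09. A ratio of more than 1.5-fold in favour of GA was reached by 17 G2/M genes and 8 S genes, while 9.7% of all genes did so and 21.2% were lower by as much. No member was lower.

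With the makeup of the libraries made equal, both ratios were smaller. When the control library's makeup of classes was given to both, the G2/M genes stood at 882 CPM in GA and 901 CPM in control, a log2 ratio of -0.03. The S genes stood at 555 and 519 CPM, a ratio of 0.10. These values depended on how cells were sorted into classes, and ran from -0.06 to 0.23 for G2/M genes and from 0.07 to 0.26 for S genes over the alternatives. They are also sums over classes that went both ways. Of 12 classes, 7 were higher in GA for G2/M genes and 6 for S genes. The 7 included granulocyte-monocyte progenitor-like cells, at a log2 ratio of 0.00 (-0.02 to 0.03). Over the alternatives the counts ran from 5 to 8 for G2/M genes and from 6 to 9 for S genes. The libraries also differed in depth, with means of 19161 UMIs per GA cell and 24317 per control cell. G2/M genes had 28.0 UMIs per cell in GA and 21.9 in control. As a mean over cells of each cell's share, the log2 ratio was 0.24 for G2/M genes and 0.06 for S genes.

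Among mitotic kinases and cyclins, Cdk1 was at 69.7 CPM (68.4 to 71.0) in GA and 47.3 CPM (46.3 to 48.3) in control, a log2 ratio of 0.56. Ccnb1, the cyclin that starts mitosis with Cdk1, was at 32.5 and 20.9 CPM, with a ratio of 0.64. Birc5, the survivin of the chromosomal passenger complex, was at 103 and 62.2 CPM, a ratio of 0.73. Aurkb of the same complex had the highest ratio of all, 1.02, from 30.3 and 14.99 CPM. The destruction genes Ube2c (136 and 82.0 CPM) and Cdc20 (35.2 and 23.8 CPM) had ratios of 0.72 and 0.57. On chromosomes, Top2a was at 201 and 113 CPM, a ratio of 0.83, and Mki67 at 164 and 100.4 CPM, a ratio of 0.71. By role, the medians of the G2/M genes ran from 0.52 for the 3 kinetochore and centromere genes to 0.77 for Mki67 and Top2a.

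Of the helicase genes, Mcm5 stood at 46.3 CPM in GA and 25.1 in control (log2 ratio 0.88), Mcm6 at 60.2 and 39.0 CPM (0.63) and Mcm2 at 27.3 and 17.6 CPM (0.63). Their loader Cdc6 was at 9.88 and 5.89 CPM, a ratio of 0.75. Rrm2 was at 72.2 and 38.2 CPM (0.92) and Tyms at 47.9 and 31.5 CPM (0.61). The lowest ratios were those of Pcna, 0.24 from 121 and 103 CPM, and Ung, 0.24 (0.12 to 0.37) from 6.44 and 5.44 CPM. Slbp, at 84.6 and 60.6 CPM, had 0.48. Pcna and Slbp were also the 2 S genes with most UMIs in mature neutrophil-like cells.

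**Figure D3:**
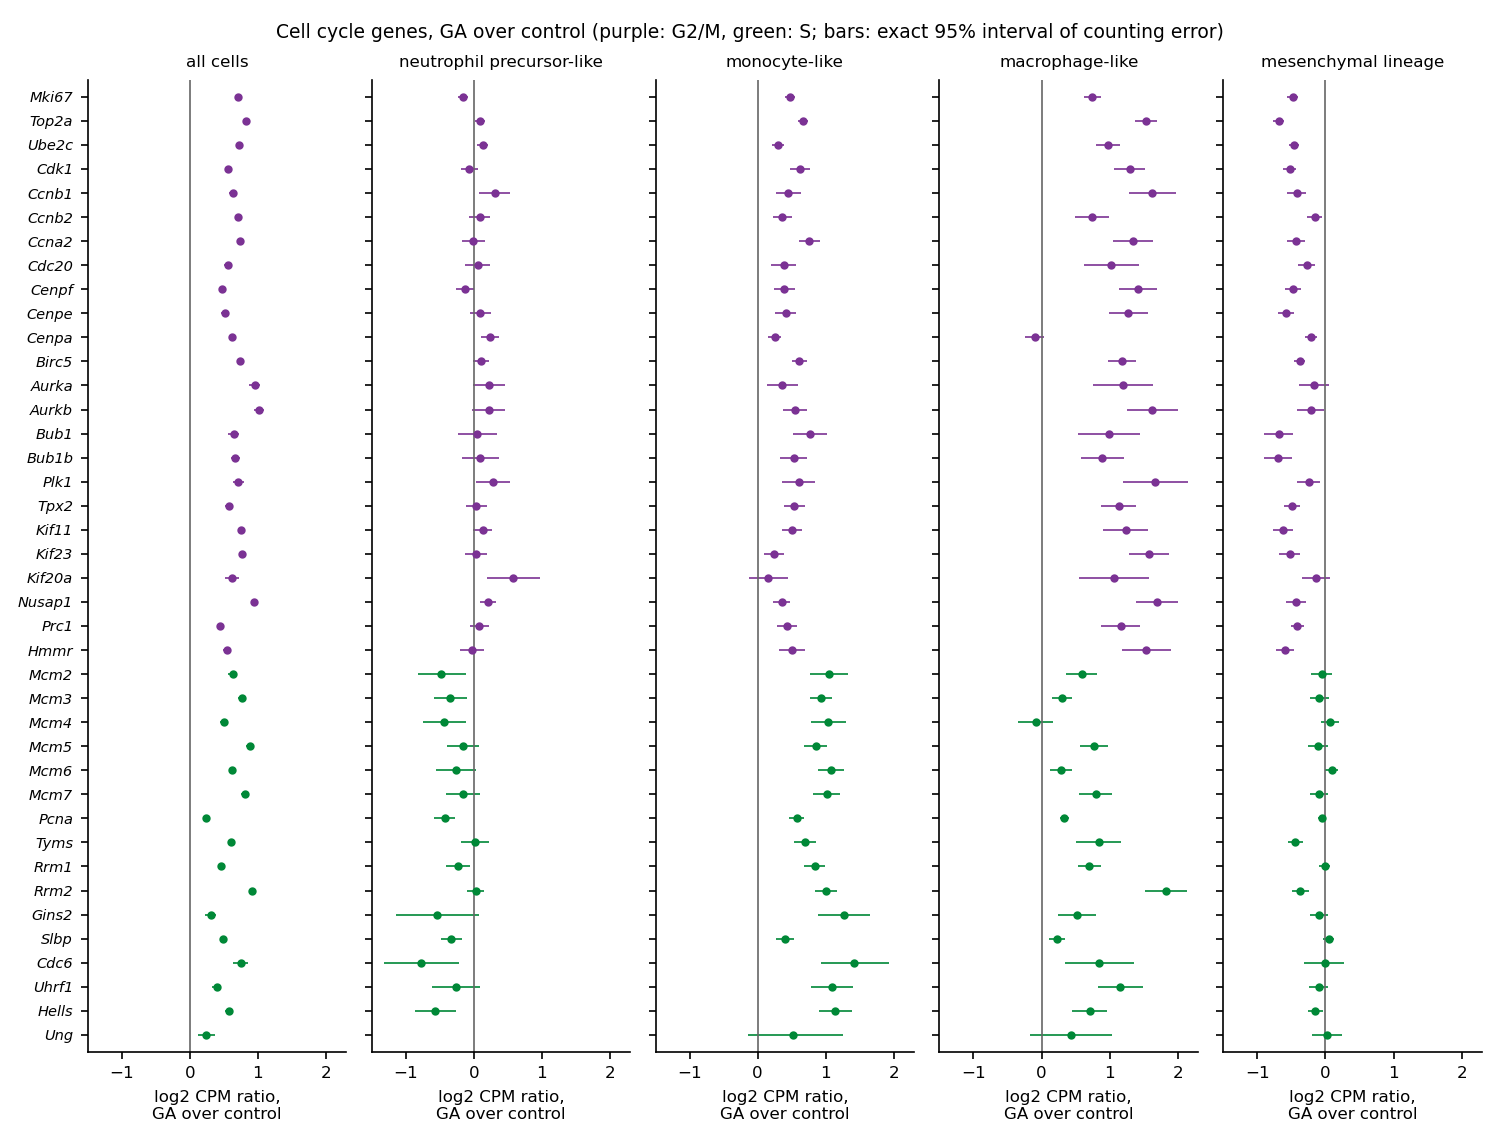
Log2 ratio of CPM, GA over control, of each member over all cells and in 4 classes, with G2/M genes in purple, S genes in green and bars for exact 95% intervals. Members with fewer than 50 UMIs in a class are left out. All 40 members lie above 0 over all cells and in monocyte-like cells, and all 24 G2/M genes lie below 0 in the mesenchymal lineage.

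To count cells, each was thinned to 2000 UMIs, which left out 158 GA and 200 control cells with fewer. A cell with at least 3 G2/M UMIs was then called a cell with G2/M transcripts. There were 1243 of 8222 in GA, 15.1% (14.4 to 15.9), and 866 of 7353 in control, 11.8% (11.05 to 12.5), a ratio of 1.28 (1.18 to 1.39). Near the cut, 242 and 200 cells had 2 such UMIs. In mature neutrophil-like cells the shares were 0.567% and 1.12%, at median depths of 4933 and 3754 UMIs. The G2/M level of that class came largely from Kif23, at 50.3 and 55.0 CPM, and Cenpa, at 27.7 and 34.3 CPM. At least 3 S UMIs were found in 11.1% and 8.85% of cells. Both sets were met by 7.48% of GA cells and 5.41% of control cells. Cells with G2/M transcripts had medians of 33704 and 27150 UMIs before thinning, against 9292 and 15125 UMIs in the rest.

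**Figure D4:**
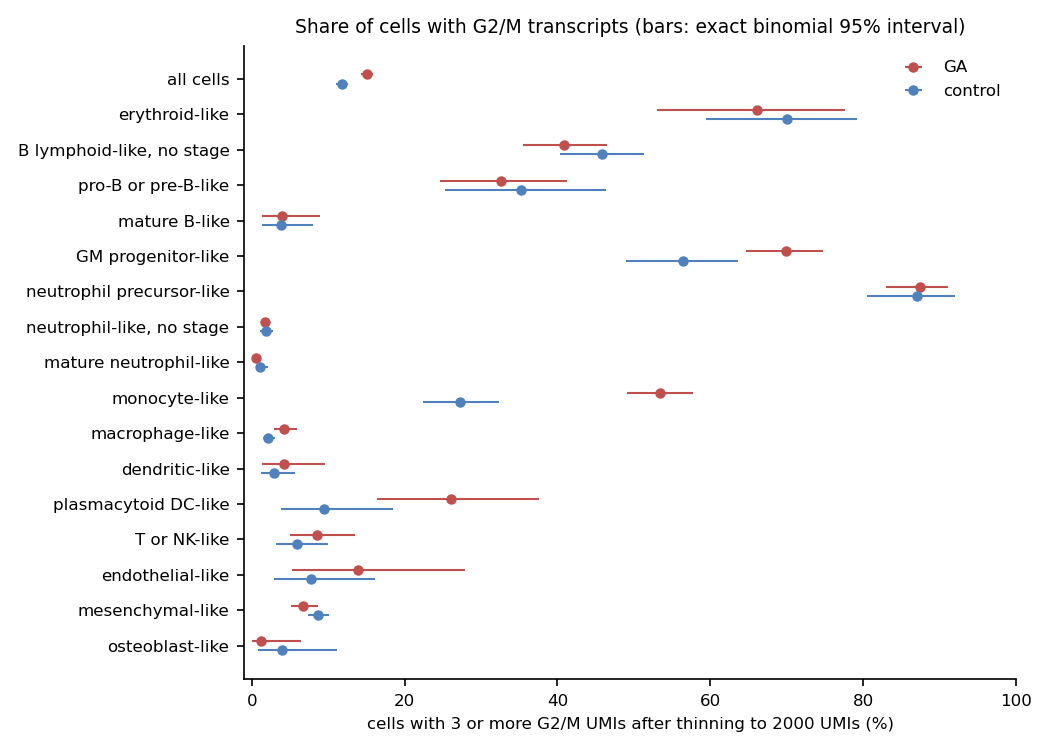
Percent of cells with at least 3 G2/M UMIs after thinning to 2000 UMIs, by class, with GA in red, control in blue and bars for exact binomial 95% intervals. Over all cells the shares are 15.1% and 11.8%, in monocyte-like cells 53.4% and 27.2%, and in neutrophil precursor-like cells 87.5% and 87.1%.

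Different classes held these cells in the 2 libraries. Monocyte-like cells were 22.6% (20.3 to 25.04) of the GA cells with G2/M transcripts and 10.3% (8.33 to 12.5) of those in control. Granulocyte-monocyte progenitor-like cells were 19.1% and 12.1%, and neutrophil precursor-like cells 19.7% and 14.8%. B lymphoid-like cells were 14.6% and 21.8%, and erythroid-like cells 3.30% and 7.27%. The mesenchymal lineage was 4.34% (3.28 to 5.63) and 16.9% (14.4 to 19.5). By UMIs of the G2/M genes, the mesenchymal lineage gave 8.40% in GA and 33.2% in control. The lineage held 47071391 of 160570724 UMIs of all genes in GA and 96470910 of 183666732 in control. Of all kept cells it was 10.4% and 22.9%, and monocyte-like cells were 6.28% and 4.37%. Granulocyte-monocyte progenitor-like cells were 4.05% and 2.98% of kept cells, and neutrophil precursor-like cells 3.34% and 1.95%. B lymphoid-like cells were 6.99% and 7.68%, and erythroid-like cells 0.823% and 1.58%.

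**Figure D5:**
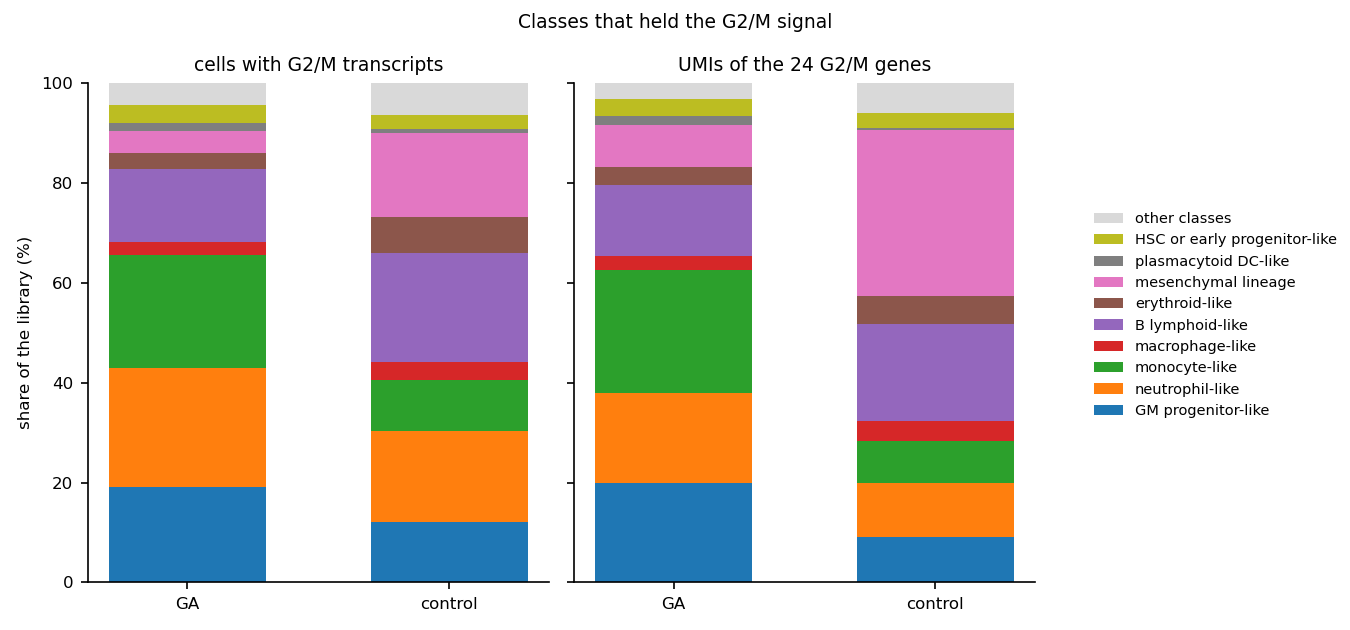
Share of each library's cells with G2/M transcripts (left) and of its UMIs of the 24 G2/M genes (right) by class, as stacked bars that add up to 100%. Monocyte-like cells hold 22.6% of such cells in GA and 10.3% in control, and the mesenchymal lineage 4.34% and 16.9%.

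In monocyte-like cells all 40 members were higher in GA, against 52.1% of all genes, and S genes by more than G2/M genes. The G2/M sum was 3706 CPM (3675 to 3736) in GA and 2667 CPM (2623 to 2712) in control, a log2 ratio of 0.47 (0.45 to 0.50). The S sum was 1517 and 856 CPM, a ratio of 0.82 (0.78 to 0.87). Past 1.5-fold higher were 6 of 24 G2/M genes and 13 of 16 S genes, against 8.81% of all genes, and no member was lower by as much, against 7.47%. Together these 19 members became 10 to 38 over the alternatives. The highest ratios were those of Cdc6, 1.42 (0.93 to 1.94) from 305 and 39 UMIs, and Gins2, a part of the replicative helicase, 1.26. The lowest were Kif20a, 0.16 (-0.13 to 0.45), and Kif23, 0.24, both kinesins of cell division. The 8 helicase and loading genes had a median ratio of 1.04 and the 7 spindle and cytokinesis genes one of 0.43. G2/M transcripts were found in 53.4% (49.1 to 57.8) of 526 GA cells and 27.2% (22.5 to 32.4) of 327 control cells.

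The monocyte-like class had 3 clusters, and they differed in this. One was led by F13a1 and Ms4a4c, held 239 GA and 110 control cells, and had 4896 and 4772 CPM of G2/M genes and 1942 and 1339 CPM of S genes. In that cluster 84.9% and 59.6% of cells had G2/M transcripts. The second, led by Msr1, had 165 and 122 cells with 2465 and 1615 CPM of G2/M genes. The third, led by Arhgef37, had 122 and 98 cells with 472 and 109 CPM. Depth moved with the groups here, with class medians of 25849 UMIs in GA and 13096 UMIs in control, and its part in the result was not tested. Over the alternatives the G2/M ratio of the class ran from 0.33 to 1.20.

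Macrophage-like cells had few G2/M transcripts, and their sum was higher in GA. The G2/M sum was 385 CPM (376 to 394) in GA and 192 CPM (187 to 196) in control, a log2 ratio of 1.01 (0.96 to 1.05). Higher by more than 1.5-fold were 23 of 24 G2/M genes and 9 of 16 S genes, where 6.45% of all genes were higher and 3.36% lower by as much. Rrm2 had a ratio of 1.83 (1.52 to 2.13) from 14.3 and 4.05 CPM and Nusap1, a spindle protein, one of 1.69. Cenpa, at 35.3 and 37.8 CPM, and Mcm4, at 10.9 and 11.6 CPM, had ratios of -0.10 and -0.09 with intervals that held 0. Cells with G2/M transcripts numbered 34 of 803 (4.23%) in GA and 31 of 1440 (2.15%) in control, a ratio of 1.97 (1.22 to 3.18). The 5 cells richest in these UMIs gave 28.1% and 21.0% of the sums, and without them the ratio was 0.88. The clusters differed, with 841 and 269 CPM of G2/M genes in one led by Ms4a7 and C1qb, 461 and 88.9 CPM in one led by Arg1, and the other order, 290.1 and 417 CPM, in one led by Ms4a7, C3ar1 and Il10. Of the 9 clusters, 3 were lower in GA.

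In the mesenchymal lineage all 24 G2/M genes were lower in GA, while S genes were close. Of all genes, 46.7% were higher in GA there. The G2/M sum was 418 CPM (412 to 424) in GA and 570.0 CPM (565 to 575) in control, a log2 ratio of -0.45 (-0.47 to -0.42). The S sum was 325 and 343 CPM, a ratio of -0.08 (-0.10 to -0.05). Lower by more than 1.5-fold were 5 G2/M genes and no S gene, where 7.61% of all genes were lower and 6.76% higher by as much. Bub1 and Bub1b, kinases of the spindle checkpoint, were lowest with -0.69 each. Top2a stood at 35.4 and 56.9 CPM (-0.68), Mki67 at 32.9 and 46.0 CPM (-0.48) and Ccnb1 at 12.2 and 16.4 CPM (-0.42). The highest ratios were 0.09 (-0.01 to 0.19) for Mcm6 and 0.07 (-0.06 to 0.21) for Mcm4. Tyms and Rrm2 differed from the other S genes in this, at -0.44 and -0.37. Cells with G2/M transcripts were 54 of 872 (6.19%) and 146 of 1731 (8.43%), a ratio of 0.734 (0.543 to 0.992).

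Within the lineage, clusters that matched no named population held 47 of the 54 GA cells and 123 of the 146 control cells with G2/M transcripts. The largest, led by Mfap5, Loxl2 and Fbn1, had them in 33 of 243 GA cells (13.6%) and 81 of 288 control cells (28.1%), with 779 and 1335 CPM. The next, led by Lrrc15 and Tnn, had them in 20.3% of 59 and 18.9% of 180 cells, with 921 and 1004 CPM. Multilineage progenitor-like cells were at 158 and 167 CPM of G2/M genes, with 69.6% and 60.9% of these UMIs in 5 cells of each library. Without those cells the ratio was -0.42. Mesenchymal stem-like cells were at 73.6 and 44.9 CPM, with 68.3% and 52.5% of these UMIs in 5 cells of each library. Fibroblastic progenitor-like cells numbered 48 in GA and 346 in control, too few for a comparison, and held 63.4 and 302 CPM. Osteoblast-like cells held 36.9 and 190.3 CPM, but 86.1% of the control UMIs lay in 5 cells, and without the top 5 of each library the ratio turned from -2.37 to 0.07. The S ratio there was -0.78, and -0.11 without the top 5 cells. Birc5 (-3.30) and Mki67 (-2.92) were the lowest and Slbp (-0.19) and Pcna (-0.38) the highest of the 8 members measured in osteoblast-like cells. In mesenchymal-like cells alone Mcm6 (0.15) and Mcm4 (0.13) were highest and Bub1b (-0.64) and Bub1 (-0.63) lowest.

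Granulocytic cells did not show one direction. In neutrophil precursor-like cells, where 87.5% of 280 GA cells and 87.1% of 147 control cells had G2/M transcripts, the G2/M ratio was 0.06 (0.03 to 0.09) and the S ratio -0.23 (-0.28 to -0.17). No member was higher by more than 1.5-fold, against 3.58% of all genes, and 1 was lower, Cdc6 at -0.77, against 4.55%. The other extremes were Kif20a, 0.58, Ccnb1, 0.31, and Hells, a remodeller of DNA packing, at -0.56. All 8 helicase and loading genes lay below 0, with a median of -0.39, while 45.5% of all genes were higher. Ung had 3 UMIs in GA and 0 in control there. Over the alternatives the G2/M ratio ran from -0.14 to 0.09. In neutrophil-like cells of all stages the G2/M ratio was -0.19 and the S ratio -0.43, while the median of all genes was -0.16. Kif20a (0.19) and Ccnb1 (0.04) were highest and Gins2 (-0.85) and Cdc6 (-0.77) lowest.

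Granulocyte-monocyte progenitor-like cells had a G2/M ratio of 0.00 (-0.02 to 0.03) and an S ratio of 0.12 (0.09 to 0.15). No member passed 1.5-fold in either direction, where 4.55% of all genes were higher and 9.42% lower. Cdc6 (0.37) and Hells (0.36) were highest and Kif23 (-0.51) and Prc1 (-0.31), both of the central spindle, lowest. Cells with G2/M transcripts were 69.9% of 339 in GA and 56.5% of 186 in control, an order that the summed level does not share. Of the control cells 60 of 225 held under 5000 UMIs, and of the GA cells 0 of 339. Among cells with at least 5000 UMIs the shares were 69.9% and 61.2%.

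In B lymphoid-like cells as a whole, at 5025 and 5232 CPM of G2/M genes, the ratios were near 0. The G2/M ratio was -0.06 (-0.08 to -0.04) and the S ratio -0.09 (-0.12 to -0.06). All 40 members lay within 1.5-fold, where 2.38% of all genes were higher and 2.14% lower. The extremes were Gins2 (0.14), Kif20a (0.12), Cenpf (-0.23), a kinetochore protein, and Pcna (-0.19). Of 584 and 577 cells, 31.0% and 32.8% had G2/M transcripts, and among those of at least 5000 UMIs 41.0% (36.3 to 45.8) and 50.4% (45.2 to 55.7). In mature B-like cells the G2/M ratio was 1.92, but 5 cells held 91.3% of the GA UMIs and without the top 5 of each library it was 0.44. Erythroid-like cells had ratios of 0.11 for G2/M and -0.07 for S genes, with 66.1% and 70% of cells with G2/M transcripts. Nusap1 (0.39) and Aurka (0.34) were highest there, and Ung (-0.77) and Bub1 (-0.42) lowest.

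Plasmacytoid dendritic-like cells, 74 in each library, had a G2/M sum of 3589 CPM in GA and 1027 CPM in control, a log2 ratio of 1.81 (1.70 to 1.91). Of 36 members with at least 50 UMIs summed over both libraries, 34 were higher by more than 1.5-fold, against 10.8% of all genes, and none lower, against 5.9%. That minimum, the same for all genes, could be met mostly through GA, as by Bub1. The part of the minimum in the count was not tested. Bub1 (3.95, with an interval of 2.34 to 6.27, from 62 and 3 UMIs) and Hmmr, a spindle protein (2.74), were highest and Mcm2 (0.41) and Pcna (0.48) lowest. Cells with G2/M transcripts were 19 of 73 (26.0%) and 7 of 74 (9.46%), a ratio of 2.75 (1.23 to 6.15), and 5 cells gave 72.8% of the control sum. Without the top 5 cells of each library the ratio was 2.76 for G2/M genes, and for S genes it was 1.76 in place of 1.14. T or NK-like cells had a G2/M ratio of 0.36 and an S ratio of 0.21. There 5 cells gave 61.9% of the G2/M UMIs in GA and 69.7% in control, and without them the G2/M ratio was 0.73. There, 7 of 19 measured G2/M genes and 2 of 12 S genes were higher by more than 1.5-fold, against 2.74% of all genes, and none lower, against 5.88%. Cdc20 (1.504) and Ube2c (1.19) were highest and Rrm2 (-0.50) and Rrm1 (-0.31) lowest, but only 16 of 188 and 13 of 219 cells had G2/M transcripts. In dendritic-like cells the G2/M ratio of 0.67 turned to -0.16 without the top 5 cells of each library. Rrm2 (2.62) and Cdk1 (1.965) were highest there and Mcm4 (-0.18) and Cenpa (-0.17) lowest. Endothelial-like cells stood at 338 and 463 CPM of G2/M genes, a ratio of -0.46 that ran from -1.16 to 1.48 over the alternatives. Depth differed there, with medians of 2035.5 UMIs in GA and 14316 in control. Of the GA cells 56 of 86 held under 5000 UMIs, and of the control cells 21 of 93. The part of depth was not tested. The highest members in endothelial-like cells were Pcna (0.40) and Mcm7 (0.16) and the lowest Prc1 (-1.33) and Birc5 (-1.03). Early progenitor-like cells, 85 in GA and 49 in control and so too few for a comparison, held 2393 and 2772 CPM of G2/M genes and 2096 and 1992 CPM of S genes.

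Cells left out as predicted doublets also held these transcripts. At least 3 G2/M UMIs after thinning were found in 134 of 589 of them in GA (22.8%) and 142 of 503 in control (28.2%). Other cells left out had the other order. Over the mitochondrial limit they were 17 of 67 in GA (25.4%) and 9 of 179 in control (5.03%). Over the upper limits on UMIs or genes they were 13 of 26 (50%) and 11 of 43 (25.6%). With doublets kept, the log2 ratio over all cells was 0.59 for G2/M genes and 0.48 for S genes.

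The 80 other genes of the cycle, listed by role, were compared in the same way. Over all cells all 20 further replication genes and all 28 further genes of spindle, checkpoint and mitosis were higher in GA, with medians of 0.57 and 0.59, where 41.5% of all genes were higher. Among replication genes Gmnn, the licensing inhibitor, and the flap nuclease Fen1 (0.81 each) and Mcm10 (0.76) were highest, and Gins3 (0.25) and Orc6 (0.26) lowest. Among mitotic genes Cdkn3, Cdca8 (0.87 each) and Incenp (0.78) were highest, and Anln (0.08), Pttg1 (0.10) and Wee1 (0.11) lowest.

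The genes that decide on entry into the cycle were mixed. Of the D cyclins, Ccnd3 was at 201 CPM in GA and 109 CPM in control, a log2 ratio of 0.88, while Ccnd1 (20.6 and 34.3 CPM, -0.74) and Ccnd2 (69.1 and 94.1 CPM, -0.45) were lower in GA. Of the 9 genes of that list 6 were higher, where 41.5% of all genes were. Its other extremes were Cdc25a (0.66), Ccne2 (0.59) and Cdk4 (-0.05). Of 10 inhibitors and pocket proteins 6 were higher, against the same 41.5%. Cdkn2d (1.04), Rbl1 (0.59) and Cdkn1b (0.34) were highest and Cdkn2b (-1.65), Cdkn1c (-1.26) and Cdkn2a (-1.24) lowest. Cdkn1a (p21) was at 196 and 231 CPM, -0.24. Of 13 E2F, MuvB and MYB genes 10 were higher, also against 41.5%. They were led by E2f2 (0.98), E2f8 (0.89) and Tfdp1 (0.62), with E2f5 (-0.82), E2f6 (-0.13) and E2f3 (-0.08) lowest.

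Within classes the lists differed. In the mesenchymal lineage 2 of 28 mitotic genes and 4 of 20 replication genes were higher in GA, with medians of -0.32 and -0.17, against 46.7% of all genes, while Cdkn1a was higher (251 and 191 CPM, 0.39) and Cdkn1c lower (205 and 276 CPM, -0.43). Ccnd3 stood at 63.2 and 46.5 CPM there (0.44) and Ccnd1 at 28.0 and 33.9 CPM (-0.28). In monocyte-like cells 26 of 28 mitotic genes and all 20 replication genes were higher, with medians of 0.49 and 0.77, against 52.1% of all genes, and Cdkn1a was lower (344 and 443 CPM, -0.37). Ccne2, an S phase cyclin, was at 29.1 and 14.2 CPM (1.03). In macrophage-like cells Ccnd1, Ccnd2 and Ccnd3 had ratios of 0.54, 0.55 and 0.53. In neutrophil precursor-like cells 3 of 20 replication genes and 13 of 28 mitotic genes were higher, with medians of -0.22 and -0.01, against 45.5% of all genes.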

How the data were processed

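The authors deposited 1 matrix of raw counts per library, with whole-number UMI counts per gene and cell barcode, made with Cell Ranger 7.0.1 by the file header (the study's methods name another version) on mm10. From these, cells with at least 500 UMIs, 200 genes and at most 140000 UMIs, 9500 genes and 15% mitochondrial UMIs were kept. Doublets were scored with Scrublet (scanpy 1.11.5). They were predicted with a rate of 0.8% per 1000 barcodes, because the automatic threshold marked 0 GA and 39 control barcodes, and were removed (656 and 540 within the limits). Pearson residuals of 2000 variable genes, without 39 cell cycle genes, were reduced to 50 components. These were joined with a version of Harmony written from its published description. Cells were clustered (Leiden, resolution 1, leidenalg 0.10.2, Python 3.11.15) in 2 rounds, and clusters were named from marker lists. The rounds and the naming thresholds were set after seeing the data.

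UMIs were summed per class. Ratios of CPM have exact conditional binomial intervals, sums exact Poisson intervals, shares Clopper-Pearson intervals and ratios of shares log-normal intervals (SciPy 1.17.1), all for counting error only. Genes with at least 50 UMIs summed over both libraries and classes with at least 50 cells per library were compared. With 1 library per group no p-value was computed, and condition and library cannot be told apart. The interval code was tested on simulated data. Members and lists were chosen with earlier results of these data known. Values are given over all cells for Mki67, Top2a, Ccnb1, Cdk1, Ube2c, Cdc20, Birc5, Mcm2, Mcm5, Mcm6, Pcna, Tyms, Rrm2, Cdc6, Slbp and Ung, in each class for the 2 members of highest ratio and the 2 of lowest ratio, and for the 3 highest and 3 lowest genes of each other list with Cdkn1a, Cdkn1c, Ccne2 and the D cyclins. Other genes named were chosen after their values were seen. The value of 1 gene that this rule names is not reported here. Promoter sequences are from RefSeq (GRCm38.p6). Alternatives changed 1 choice at a time in the limits, doublets, clustering, naming, scaling, thinning and weights of cells.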

Additional observations from a re-analysis of the deposited data

Results flagged for a closer look

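The classes did not all differ in the same direction between the libraries, and the levels listed here kept their sign under every alternative that gave a value. None of these differences between classes was tested, since each condition has 1 library. For G2/M genes, the log2 ratio of GA over control was 0.36 in T or NK-like cells, 0.47 in monocyte-like cells, 1.01 in macrophage-like cells and 1.81 in plasmacytoid dendritic-like cells, all higher in GA. It was -0.19 in neutrophil-like cells, -0.39 in mesenchymal-like cells and -0.45 in the mesenchymal lineage with osteoblast-like cells, all lower in GA. In neutrophil-like cells the median of all genes was itself -0.16, and the G2/M level relative to the median of well-covered genes was -0.05. Neutrophil precursor-like cells, with a G2/M ratio of 0.06, held 8135203 of 40382350 UMIs of that class in GA and 3575093 of 14805825 in control. The part of this stage makeup in the ratio was not tested.

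For S genes, the ratio was 0.12 in granulocyte-monocyte progenitor-like cells, 0.21 in T or NK-like cells, 0.44 in macrophage-like cells, 0.49 in dendritic-like cells, 0.82 in monocyte-like cells and 1.14 in plasmacytoid dendritic-like cells. It was -0.23 in neutrophil precursor-like cells, -0.42 in neutrophil-like cells and -0.78 in osteoblast-like cells, where it was -0.11 without the 5 richest cells of each library. In dendritic-like cells the 5 richest held 38.8% of these UMIs in GA and 20.2% in control. Without them the ratio there was 0.18. Some intervals under the alternatives held 0 for granulocyte-monocyte progenitor-like, neutrophil precursor-like and osteoblast-like cells.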

How the results depend on the processing

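No paired analysis was possible because each condition has 1 library. Of 1248 values under 24 alternatives, 935 stayed close to the reported value, 311 moved by more, and 2 turned the sign of a class level reported as past 1.5-fold. Close meant within the counting interval, for counts of genes or classes within 1.5 times, and for medians over members within a fixed distance. Of 688 values that are log2 ratios or their medians, 53 of 13 results had the other sign than reported. In 18 of 28 class levels the reported interval left out 0 and every alternative kept the sign, though 7 values of 3 of them had an interval that held 0. Without the 5 cells with most UMIs of the list in each library, the G2/M ratio turned to -0.16 in dendritic-like cells and to 0.0721 in osteoblast-like cells.

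With the control makeup given to both libraries, the G2/M ratio was -0.03. It was 0.14 with doublets kept, 0.0575 with at most 10% mitochondrial UMIs, 0.11 with no upper limits, -0.0551 with at least 2000 UMIs per cell, 0.0893 without Harmony, 0.11 at resolution 2, and 0.10, -0.0099 and -0.0048 with other seeds. It was 0.23 with cell cycle genes kept in the clustering, 0.0425 with cells named by marker score, 0.0825 with the GA makeup and -0.0482 in cells of at least 5000 UMIs, an alternative chosen after seeing the data. The S ratio was 0.10, and in the same order 0.19, 0.19, 0.26, 0.0748, 0.23, 0.19, 0.23, 0.12, 0.11, 0.24, 0.14 and 0.16 up to the GA makeup.

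The summed G2/M ratio over all cells was 0.59 with doublets kept, 0.67 with no upper limits, 0.77 relative to the median gene, 0.24 as a mean over cells and 0.71 without the 5 richest cells. The S ratio was 0.48 with doublets kept, 0.63 relative to the median gene and 0.0639 as a mean over cells. The number of members past 1.5-fold over all cells ran from 17 to 31, and all 40 stayed higher. The causes of these shifts were not tested.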
